A study of Homo sapiens with 4 samples.

Results

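The CCDC genes are human genes named only for a predicted coiled-coil domain and a number. The members were the 138 protein-coding genes of GENCODE v44 whose symbol consists of CCDC, a number and at most one letter. Their Ensembl identifiers were looked up in the 63677 genes of the count table, where 133 had a row. The 5 without a row (CCDC39, CCDC92B, CCDC163, CCDC195 and CCDC201) were not analysed here. A count was present for 119 members and 88 had enough counts to be tested, among 14645 genes tested in all.

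A coiled coil is a rope of alpha helices that wind around each other through a repeating pattern of hydrophobic residues, with charged residues on the outside. Its helices are rich in glutamate, which is encoded by GAA or GAG, and in lysine, which is encoded by AAA or AAG. Proteins with such domains build centrioles, cilia, tethers of membrane traffic and scaffolds of large complexes, and the CCDC symbol says nothing of common ancestry or function.

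The RNA came from nuclei of the human colorectal carcinoma line HCT116, transiently transfected for 48 h with pcDNA3.1-ORC1-3xFLAG. This plasmid expresses FLAG-tagged ORC1, a subunit of the complex that marks replication origins. Sonicated nuclear lysate that had not been crosslinked was precipitated with the FLAG antibody M2 (IP, 2 libraries), and the same lysate without precipitation served as the Input (2 libraries). All 4 libraries came from transfected cells, and libraries of a control antibody or of untransfected cells are not part of the series, so Input was the only reference. The comparison asks which nuclear RNAs were recovered with ORC1-FLAG relative to their share of the lysate.

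The IP libraries held 27483148 and 20280445 counts in replicates 1 and 2, and the Input libraries 14677002 and 9213877. Levels are given as CPM, the count of a gene relative to the library total, scaled by edgeR's trimmed mean method (TMM). In these units 1 count was worth between 0.0480 and 0.0856 CPM. ORC1 itself was at 1108 and 18551 CPM in IP, against 333 and 5063 CPM in Input, so the replicates differed more in ORC1 counts than IP differed from Input, and RNA of the plasmid was not separated from that of the chromosomal gene. The epithelial genes EPCAM, KRT8, KRT18 and CDH1 were counted in every library, CD3E and PECAM1 were at 0 in all of them, and PTPRC had 1 count in 1 library. COL1A1, a fibroblast collagen, was at 7.90 and 10.8 CPM in Input and 21.6 and 26.7 CPM in IP, and its part in the results below was not tested. The replicates are described as duplicate experiments, and neither the labels nor the methods say whether they were separate cultures, so p-values measure only the spread between these libraries, part of which may be technical.

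Sequences of 60 coding bases are given for 12 members because the coding sequences differed widely in GAA content, the feature by which the members are ordered further on. Each is from the canonical GENCODE v44 transcript on GRCh38, lies within 1 coding exon, and is written 5′ to 3′ on the coding strand with every GAA in capitals. For CCDC77 and CCDC174 the stretch with the first GAAGAAGAA is given, and for the others the stretch with the most GAA among those that start on a codon. The first 5 are from mRNAs that were enriched in IP.

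CCDC77: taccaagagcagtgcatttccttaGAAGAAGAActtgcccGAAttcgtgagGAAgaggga
CCDC174: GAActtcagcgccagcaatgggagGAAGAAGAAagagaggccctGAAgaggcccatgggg
CCDC66: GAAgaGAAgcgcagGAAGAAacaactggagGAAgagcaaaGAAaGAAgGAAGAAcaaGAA
CCDC88A: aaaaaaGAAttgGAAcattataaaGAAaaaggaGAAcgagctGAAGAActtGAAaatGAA
CCDC88C: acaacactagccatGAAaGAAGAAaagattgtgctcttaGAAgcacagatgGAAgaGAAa

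They lie at chr12:440662-440721 (CCDC77, plus strand), chr3:14666857-14666916 (CCDC174, plus strand), chr3:56613610-56613669 (CCDC66, plus strand), chr2:55334922-55334981 (CCDC88A, minus strand) and chr14:91308390-91308449 (CCDC88C, minus strand). The CCDC66 stretch holds 10 GAA, of which 5 are read as glutamate codons. The CCDC88A stretch holds 8 GAA, all 8 in frame. The next 3 are from the mRNAs that were depleted from IP, and hold 3 or 4 GAA each.

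CCDC115: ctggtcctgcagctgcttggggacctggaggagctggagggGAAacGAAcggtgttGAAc
CCDC3: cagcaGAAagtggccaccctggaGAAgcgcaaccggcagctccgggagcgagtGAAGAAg
CCDC126: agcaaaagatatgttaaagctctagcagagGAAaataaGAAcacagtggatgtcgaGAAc

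They lie at chr2:130342030-130342089 (CCDC115, minus strand), chr10:12898560-12898619 (CCDC3, minus strand) and chr7:23611472-23611531 (CCDC126, plus strand). The last 4 are from mRNAs that were not called in either direction, and include members with high and with low GAA content.

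CCDC136: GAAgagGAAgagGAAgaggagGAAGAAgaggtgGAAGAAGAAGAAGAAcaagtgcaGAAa
CCDC68: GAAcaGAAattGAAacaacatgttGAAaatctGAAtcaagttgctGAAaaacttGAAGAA
CCDC88B: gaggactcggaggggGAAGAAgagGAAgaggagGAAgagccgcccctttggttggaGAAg
CCDC71L: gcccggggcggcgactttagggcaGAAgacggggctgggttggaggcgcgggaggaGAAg

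They lie at chr7:128794380-128794439 (CCDC136, plus strand), chr18:54934871-54934930 (CCDC68, minus strand), chr11:64340640-64340699 (CCDC88B, plus strand) and chr7:106660780-106660839 (CCDC71L, minus strand). CCDC136 had the longest run of GAA codons of any tested member, 5 in a row, and 11 GAA in its 60 bases. The CCDC71L stretch holds 2 GAA, the most of any 60 bases of that coding sequence that start on a codon.

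More CCDC mRNAs were recovered above Input than below it. Of the 88 tested, 17 were enriched in IP and 3 were depleted, and 66 had a positive log2 fold change. Members were called enriched or depleted when the edgeR quasi-likelihood test gave a Benjamini-Hochberg adjusted p below 0.05 over all genes tested and the log2 fold change passed 1 or -1. The 17 enriched members were 19.3% of those tested, where 10.5% of all genes tested and 11.9% of protein-coding genes were enriched. The 3 depleted members were 3.41%, where 8.30% of all genes tested and 8.23% of protein-coding genes were depleted. For the level of an RNA in these bulk lysates, more copies in each nucleus and more nuclei that hold it cannot be told apart.

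The median log2 fold change of the 88 was 0.55 (interquartile range 0.011 to 1.13), against 0.0079 over all genes tested and 0.075 over the other 12446 protein-coding genes, and it turned to -0.042 under scaling by library size alone, where that of all genes was -0.59. In that scaling 6 members were enriched and 7 depleted, where the shares of all genes were 2.59% and 22.2%. Relative to all genes, the median of the members was 0.54 with TMM and 0.55 with library size alone. All fold changes are therefore relative to the other RNAs of the same libraries.

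Within each replicate, the log2 ratio of IP to Input used scaled CPM with a pseudocount of 0.5 CPM. The median ratio of the members was 0.50 in replicate 1 and 0.46 in replicate 2. The ratio was above 0 in both replicates for 57 members and below 0 in both for 15, where the shares of all genes were 42.9% and 41.7%, and the other 16 members had opposite signs. It was above 1 in both for 16 members (8.95% of all genes), namely 15 of the 17 enriched members and CCDC34. It was below -1 in both for CCDC3 and CCDC126 (6.96% of all genes). Both IP libraries lay above both Inputs for 49 members (33.2% of all genes) and below both for 11 (31.9%). The ratios of replicates 1 and 2 had a Spearman rho of 0.78 across the 88 members and 0.88 across the other protein-coding genes. This is a description across genes, whose ratios share the same 4 libraries.

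**Figure D1:**
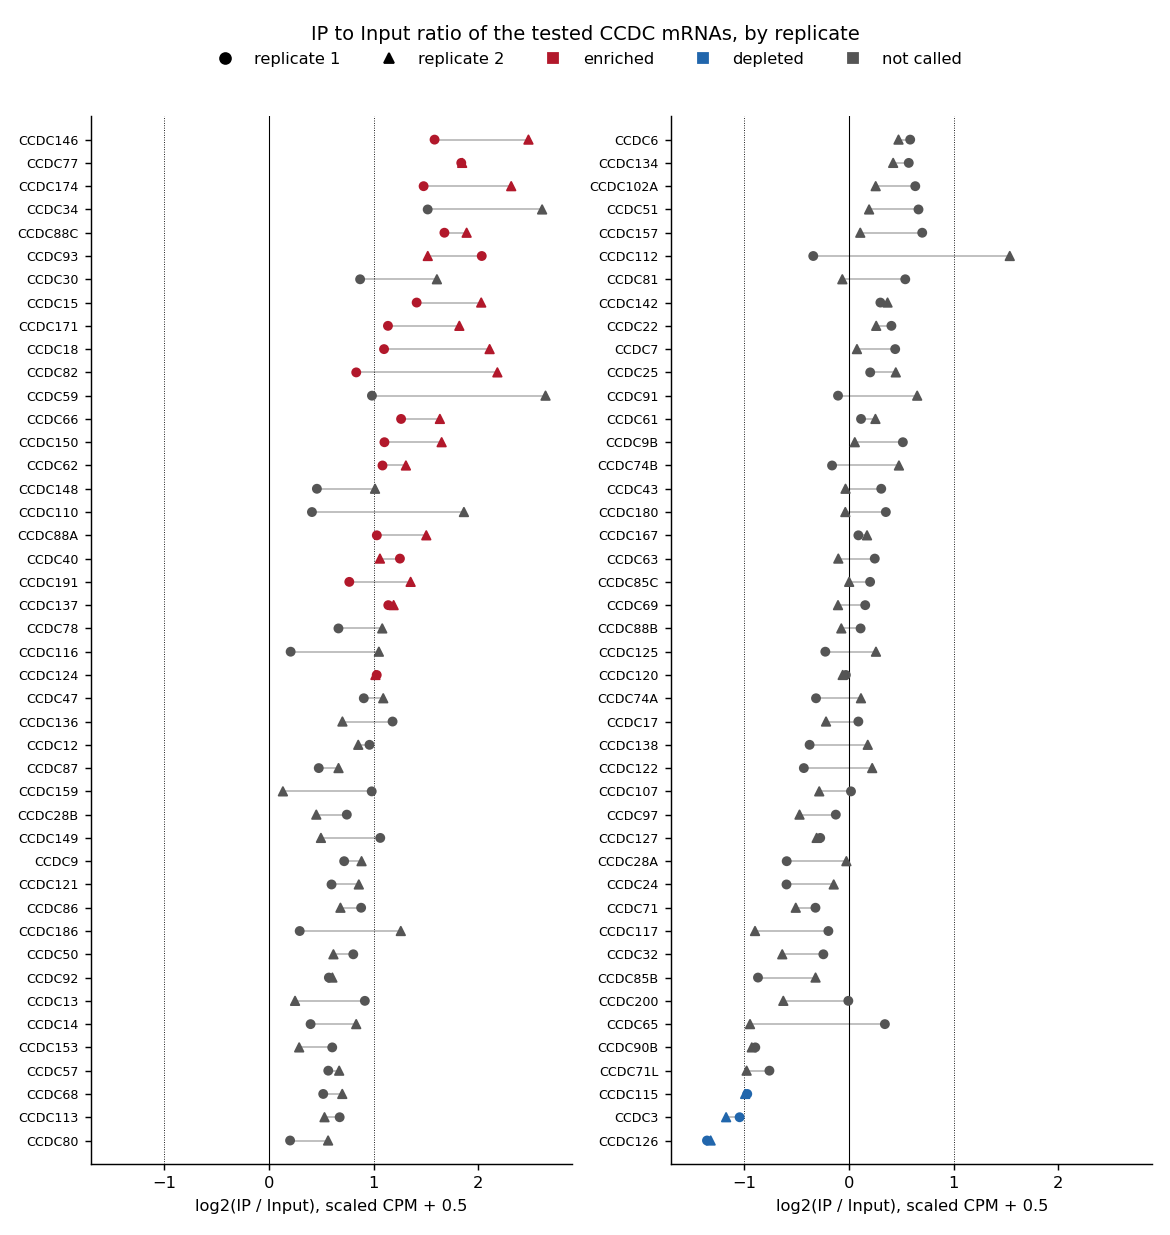
Log2 ratio of IP to Input (scaled CPM with a pseudocount of 0.5) for the 88 tested CCDC mRNAs, ordered by log2 fold change, with a circle for replicate 1, a triangle for replicate 2 and a line between them. Enriched members (red) lie to the right of 0 in both replicates and the 3 depleted members (blue) to the left, while CCDC112, CCDC59 and CCDC110 have long lines between their replicates; under scaling by library size alone the median of the members was -0.042.

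CCDC146, a protein of centrioles and microtubules, had the highest log2 fold change of the members. It was at 8.55 and 10.4 CPM in IP, against 2.52 and 1.45 CPM in Input. Both IP libraries stood above both Inputs, and the Input level of replicate 2 rested on 17 counts. With 2 libraries in each group its log2 fold change, here and below given with its standard error, was 2.23 ± 0.37 (edgeR adjusted p = 0.0131).

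CCDC77, a centrosomal protein, was at 73.4 and 38.9 CPM in IP, against 20.2 and 10.4 CPM in Input. Both levels were higher in replicate 1, and the ratio was nearly the same in the replicates, 1.84 and 1.85 on the log2 scale (edgeR log2 fold change 1.87 ± 0.42, adjusted p = 0.0238). CCDC174, which associates with the exon junction complex that is deposited on spliced mRNA, was at 67.3 and 64.6 CPM in IP, against 23.8 and 12.6 CPM in Input. The IP levels were close to each other and the Inputs were not, so the ratio was 1.48 in replicate 1 and 2.32 in replicate 2 (edgeR log2 fold change 1.85 ± 0.33, adjusted p = 0.0140).

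CCDC88C, also called DAPLE, links Wnt receptors and Dishevelled to G proteins. It was at 95.6 and 117 CPM in IP, against 29.6 and 31.3 CPM in Input, with little spread inside each group. The log2 fold change was 1.81 ± 0.23 (edgeR adjusted p = 0.0105). CCDC93, a subunit of the endosomal complex that recycles membrane receptors, was at 156 and 138 CPM in IP, against 37.7 and 47.8 CPM in Input. The groups lay far apart, with a log2 fold change of 1.78 ± 0.25 (edgeR adjusted p = 0.0105).

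The other 5 of the 10 largest enrichments were those of CCDC15, CCDC171, CCDC82, CCDC18 and CCDC66. CCDC15, a protein of the inner centriole, was at 25.2 and 26.3 CPM in IP, against 9.16 and 6.08 CPM in Input (log2 fold change 1.75 ± 0.28, edgeR adjusted p = 0.0118). CCDC66, a microtubule-binding protein of centriolar satellites, was at 27.2 and 23.9 CPM in IP, against 11.1 and 7.36 CPM in Input (log2 fold change 1.47 ± 0.28, edgeR adjusted p = 0.0160). Neither gene had overlapping groups. CCDC171 had a log2 fold change of 1.58 ± 0.29 (edgeR adjusted p = 0.0150), with 12.8 and 18.5 CPM in IP, against 5.56 and 4.88 CPM in Input. CCDC82 (1.49 ± 0.36, edgeR adjusted p = 0.0277) and CCDC18 (1.49 ± 0.44, edgeR adjusted p = 0.0491) had larger errors. For both, the Input level of replicate 1 was well above that of replicate 2, at 13.1 against 6.76 CPM for CCDC82 and at 15.8 against 5.91 CPM for CCDC18.

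The remaining 7 enriched members had log2 fold changes from 1.03 (CCDC124) to 1.45 (CCDC150). In all 17 enriched members both IP libraries lay above both Inputs. Leaving out each library in turn, 10 of the 17 were called in all 4 fits. CCDC62 was called in none of the 4, with log2 fold changes between 1.22 and 1.70. The fits had group as the only term, so leaving out a library also broke a pair of IP and Input, and it left 1 library in its group. In replicates 1 and 2, the log2 ratios were 1.14 and 1.19 for CCDC137, 1.03 and 1.02 for CCDC124, and 1.10 and 2.11 for CCDC18. Without IP replicate 1 or Input replicate 2 these members lost the call, with lowest log2 fold changes of 0.79, 0.64 and 0.81. CCDC82 lost it without Input replicate 2 (0.96), CCDC40 without IP replicate 1 (1.34, edgeR adjusted p = 0.0582) and CCDC191 without IP replicate 2 (0.82).

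The 3 depleted members had coding sequences of 423 to 813 bases and levels between 1.39 and 13.9 CPM. CCDC126 was at 1.39 and 2.16 CPM in IP, against 4.35 and 6.16 CPM in Input (log2 fold change -1.56 ± 0.43, edgeR adjusted p = 0.0416). CCDC3, a secreted protein, was at 6.15 and 5.86 CPM in IP, against 13.2 and 13.9 CPM in Input (log2 fold change -1.17 ± 0.24, edgeR adjusted p = 0.0195). CCDC115, an assembly factor of the vacuolar proton pump, was at 6.58 and 6.54 CPM in IP, against 13.4 and 13.5 CPM in Input (log2 fold change -1.04 ± 0.24, edgeR adjusted p = 0.0259). In each case both IP libraries lay below both Inputs, by similar amounts in the replicates. None of the 3 was called in all 4 fits that left out a library. CCDC115 and CCDC3 lost the call without IP replicate 1 and without IP replicate 2, and CCDC126 without IP replicate 1 and without Input replicate 2. Each of these fits left 1 library in a group. The log2 fold changes ran from -1.29 to -1.09 for CCDC3, from -1.18 to -0.98 for CCDC115 and from -1.85 to -1.23 for CCDC126. All 3 were called in the fit with the RIP replicate as a block, described below.

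**Figure D2:**
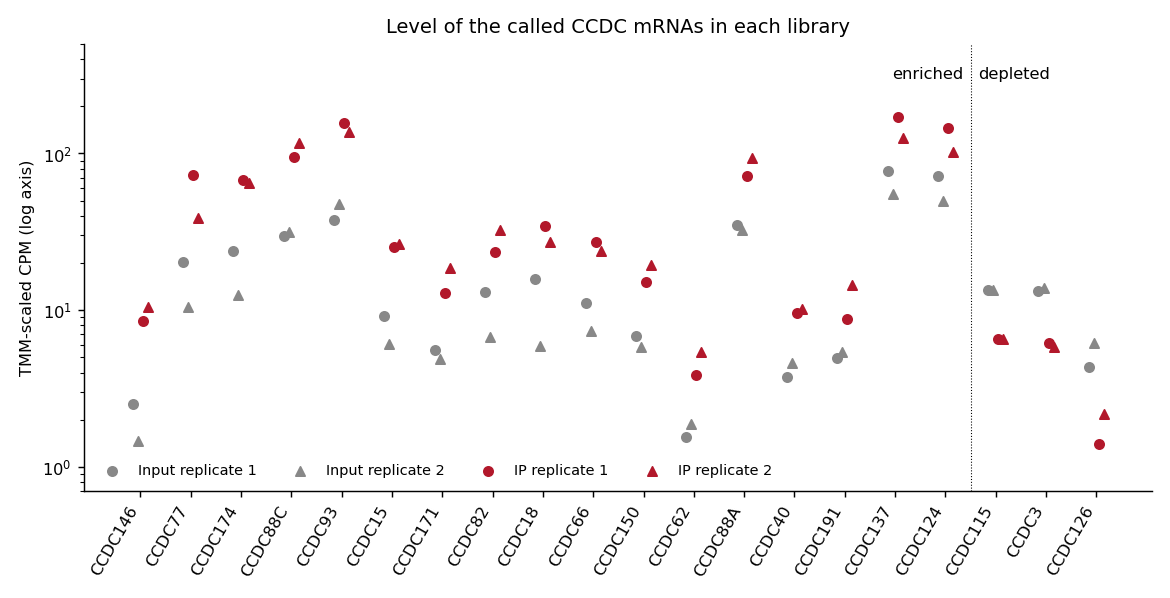
TMM-scaled CPM (log axis) of the 17 enriched and 3 depleted CCDC mRNAs in each library, with Input in grey, IP in red, circles for replicate 1 and triangles for replicate 2. For each enriched mRNA both red points lie above both grey points, from CCDC62 (1.55 to 5.40 CPM) to CCDC137 (54.9 to 170 CPM), and for each depleted mRNA below them.

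Members close to the thresholds were as follows. CCDC47, which guides membrane proteins into the endoplasmic reticulum, was at 474 and 429 CPM in IP, against 253 and 201 CPM in Input (log2 fold change 0.99 ± 0.26, edgeR adjusted p = 0.0345). CCDC136 (0.99) and CCDC9 (0.82) also passed the adjusted p with a log2 fold change below 1, and CCDC90B (-0.95) did so on the negative side. There were 7 members with a log2 fold change above 1 that did not pass the adjusted p, CCDC34, CCDC30, CCDC59, CCDC148, CCDC110, CCDC78 and CCDC116.

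CCDC34, a protein of the sperm flagellum, was at 43.6 and 21.9 CPM in IP, against 14.9 and 3.17 CPM in Input (log2 fold change 1.83 ± 0.65, edgeR adjusted p = 0.0843). Its IP stood above its own Input in both replicates, by 1.52 and 2.61 on the log2 scale. CCDC59 was at 123 and 91.4 CPM in IP, against 61.9 and 14.2 CPM in Input (1.49 ± 0.60, edgeR adjusted p = 0.115). Its ratio was 0.98 in replicate 1 and 2.64 in replicate 2. CCDC112, a centriolar satellite protein, went apart in the replicates, at -0.34 and 1.54, and its Input was 14.3 CPM in replicate 1 and 4.79 CPM in replicate 2.

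A fit with the RIP replicate as a block compared each IP with its own Input. It called 23 members enriched and 3 depleted, where 13.4% of all genes were enriched and 13.4% depleted. The 6 members that it added were CCDC34 (log2 fold change 2.03, edgeR adjusted p = 0.000176), CCDC30 (1.69, edgeR adjusted p = 0.00264), CCDC110 (1.28), CCDC78 (1.11), CCDC136 (1.00) and CCDC47 (1.00). The mRNAs of CCDC30, CCDC110 and CCDC78 were below 5 CPM in every library.

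The proteins were grouped by known role, and the groups overlapped in their values. The counts below stand beside 10.5% of all genes enriched and 8.30% depleted, and the groups were not tested against those shares. The lists are not complete. CCDC68, a protein of centriole appendages, and CCDC34 were on none of them and are counted among the members without a group. The groups also differed in median coding length, from 783 bases (mitochondrion) to 2091 bases (centrosome and centriolar satellite). The part of length in the values of the groups was not tested. Among the role groups, that of centrosome and centriolar satellite proteins held the most enriched members and was also the largest. Of 15 tested, 5 were enriched (CCDC146, CCDC77, CCDC15, CCDC18 and CCDC66), none was depleted and the median log2 fold change was 0.67, against 0.55 over all 88 members. The lowest of this group were CCDC138, a satellite protein, at -0.19, and CCDC120, a protein of centriole appendages, at -0.047, and neither passed the test. CCDC120 was at 5.76 and 9.33 CPM in IP, against 5.90 and 9.76 CPM in Input, so that its groups overlapped.

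Of 10 tested members with roles in RNA and the nucleus, 3 were enriched and none was depleted, with a median of 0.87. The enriched members were CCDC174, CCDC137 and CCDC124, a ribosome-binding protein. CCDC12, a spliceosome component, had a log2 fold change of 0.93 ± 0.30 (edgeR adjusted p = 0.0655). CCDC85B (-0.57) and CCDC97, which associates with the splicing factor SF3B (-0.30), had the lowest values of the group and did not pass the test.

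Of 12 members of membrane traffic and signalling, 3 were enriched (CCDC88C, CCDC93 and CCDC88A), CCDC115 was depleted, and the median was 0.62. CCDC22, the partner of CCDC93 in the same endosomal complex, was at 15.7 and 14.8 CPM in IP, against 11.7 and 12.3 CPM in Input (log2 fold change 0.35 ± 0.23, edgeR adjusted p = 0.302). CCDC32, a chaperone of the AP2 adaptor of endocytosis, had a log2 fold change of -0.51 and did not pass the test.

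Of the 4 tested members of the motile cilium, CCDC40, which sets the spacing of axonemal dyneins, was enriched, at 9.56 and 10.2 CPM in IP, against 3.72 and 4.62 CPM in Input (log2 fold change 1.25 ± 0.29, edgeR adjusted p = 0.0249). CCDC113 was at 0.62, CCDC63 at 0.12 and CCDC65, a subunit of the nexin-dynein regulatory complex, at -0.61 on the log2 scale, and none of them passed the test. CCDC63 had at most 12 counts in a library. The mitochondrial members CCDC51, a subunit of a mitochondrial potassium channel (0.47), CCDC127 (-0.30) and CCDC90B (-0.95) held no called member. Among the 44 tested members in none of these groups 5 were enriched and 2 depleted, with a median of 0.35.

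**Figure D3:**
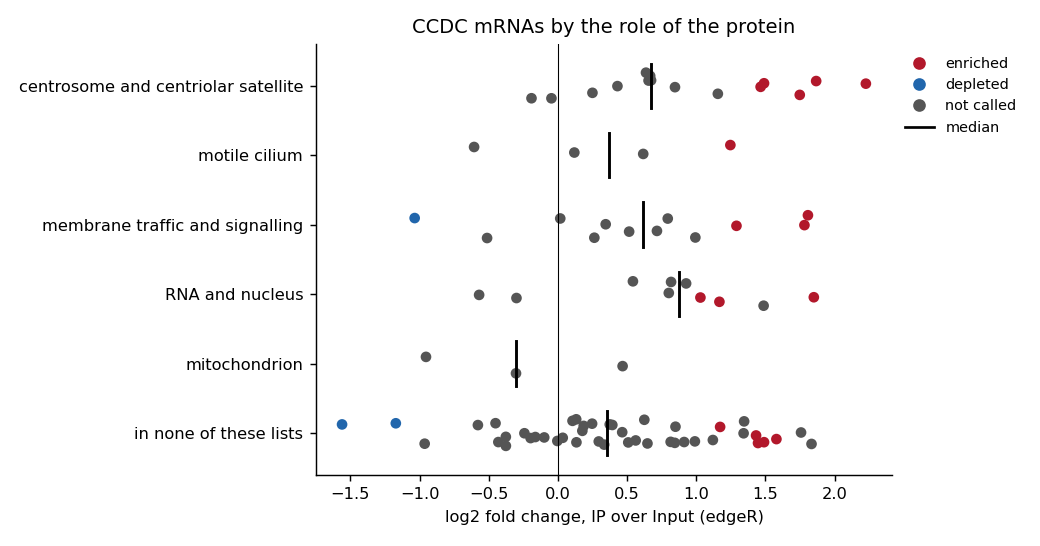
edgeR log2 fold change of IP over Input for the 88 tested CCDC mRNAs by role of the protein, with 1 point per mRNA and a bar at the median of each group. The medians run from -0.30 (mitochondrion, 3 members) to 0.87 (RNA and nucleus, 10 members) with TMM scaling, and the points of the groups overlap; scaling by library size alone moved the median of all genes from 0.0079 to -0.59.

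Longer coding sequences had higher fold changes, in the CCDC members and in the other protein-coding genes. Of the 26 members with less than 900 coding bases, 2 were enriched and 3 depleted, with a median log2 fold change of -0.082, against -0.61 for the other genes of that length, of which 2.32% were enriched and 24.1% depleted. From 900 to 1500 bases, 2 of 21 members were enriched (median 0.54, against -0.15), where 4.38% of the other genes were. From 1500 to 3000 bases, 7 of 30 were enriched (median 0.73, against 0.33), where 13.0% of the other genes were. Of the 11 members with 3000 bases or more, 6 were enriched and all 11 had a positive log2 fold change (median 1.25, against 0.91), where 38.8% of the other genes of that length were enriched.

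The Spearman rho of coding length with log2 fold change was 0.48 across the 88 members, and 0.43 and 0.45 with the ratios of replicates 1 and 2. It was 0.59 across the other protein-coding genes. With the length of all exons in place of the coding length it was 0.21 for the members and 0.30 for the others. It ranged from 0.35 to 0.59 when a library was left out, the lowest value being that without Input replicate 1.

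The 5 longest coding sequences showed the range. CCDC88C (6087 bases) and CCDC88A (5616 bases) were enriched, as was CCDC18 (4368 bases). CCDC180 (4974 bases) had a log2 fold change of 0.13 ± 0.96 on at most 35 counts in a library and shares 38.4% of its exonic bases with another gene on the same strand. CCDC88B (4431 bases) had 0.017 ± 0.26, with 8.26 and 8.59 CPM in IP, against 7.62 and 9.07 CPM in Input. Of the 5 shortest, CCDC126 (423 bases) and CCDC115 (543 bases) were depleted, while CCDC167 (294 bases) was at 0.13, CCDC12 (501 bases) at 0.93 and CCDC200 (507 bases) at -0.58 without passing the test.

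**Figure D4:**
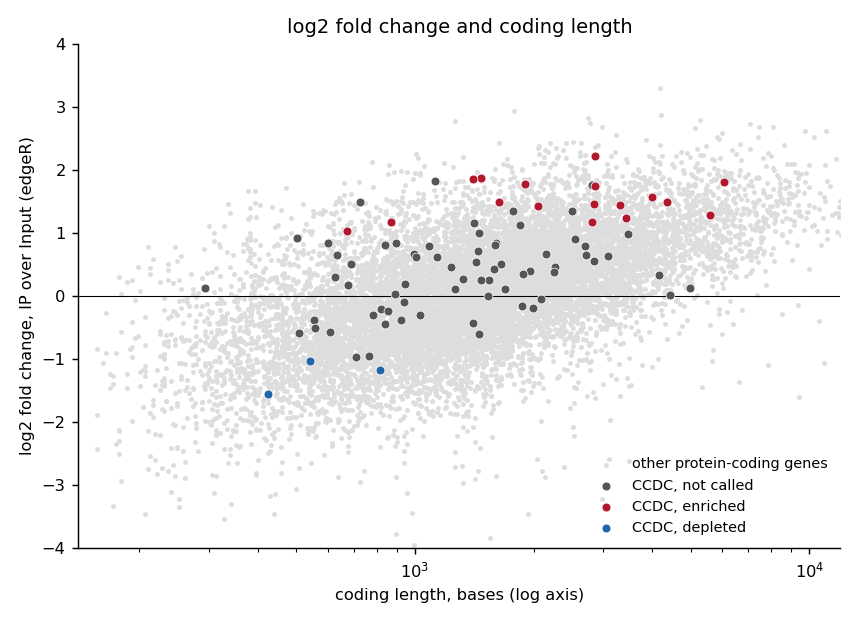
edgeR log2 fold change of IP over Input against the length of the coding sequence in bases (log axis), with CCDC mRNAs as large points (red enriched, blue depleted, dark grey not called) and the other protein-coding genes as small grey points, of which 65 lie outside the axes. Both clouds rise with length, with a Spearman rho of 0.48 for the 88 CCDC mRNAs and 0.59 for the others, and the 3 depleted CCDC mRNAs have less than 900 coding bases.

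CCDC coding sequences held more GAA than those of other genes. The tested members had a median of 34.2 GAA per kb, counted on the coding strand in all frames, and the other protein-coding genes 22.7. Pooled over the genes of each set, the share of these GAA that are read as glutamate codons was 50.0% in the members and 44.8% in the other genes. The tandem GAAGAAGAA was present in 33 of the 138 CCDC coding sequences (23.9%) and in 2094 of the 19949 protein-coding sequences of the annotation (10.5%).

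Members with more GAA had higher fold changes. With less than 20 GAA per kb, none of 19 members was enriched and CCDC3 was depleted (median log2 fold change 0.017, against -0.10 for other genes, of which 3.95% were enriched and 9.25% depleted). Between 20 and 40 per kb, 6 of 38 members (15.8%) were enriched and 2 depleted (median 0.63, against 0.19), and the share of enriched members was close to the 15.6% of the other genes. With 40 per kb or more, 11 of 31 members (35.5%) were enriched and none was depleted (median 1.17, against 0.75). Of the other genes with as much GAA, 30.8% were enriched. The Spearman rho of GAA density with log2 fold change was 0.44 across the 88 members, 0.33 in replicate 1 and 0.53 in replicate 2, and 0.25 across the other protein-coding genes. In the leave-one-out fits, which did not pair IP with Input, it was 0.16 for the members without Input replicate 2 and 0.24 without IP replicate 1. It was also lower when the 119 members with any count entered, at 0.21 in edgeR without a count filter and 0.22 in DESeq2.

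GAA density was nearly unrelated to coding length among the members (rho 0.095), and the relation with fold change was present in both length classes. Split at the median of 1453.5 coding bases, rho was 0.40 in the 44 shorter and 0.51 in the 44 longer members. In replicates 1 and 2 it was 0.35 and 0.48 in the shorter members, and 0.32 and 0.60 in the longer members. With GAA per kb of the longest transcript in place of the coding sequence, rho was 0.19 in the shorter and 0.50 in the longer members. The share of lysine codons had a rho of 0.58 in the shorter and 0.37 in the longer members. The parts of length, GAA and lysine codons in the fold change were not tested separately. Of the 16 members with at least 1500 coding bases and at least 40 GAA per kb, 9 (56.25%) were enriched. The share was 50.7% among the other genes with both features. Of the 15 with as much GAA and fewer than 1500 bases, 2 (13.3%) were enriched (CCDC77 and CCDC174), where 15.6% of such other genes were. Of the 9 members with 1500 bases or more and under 20 GAA per kb none was enriched, where 178 of 2226 such other genes were.

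**Figure D5:**
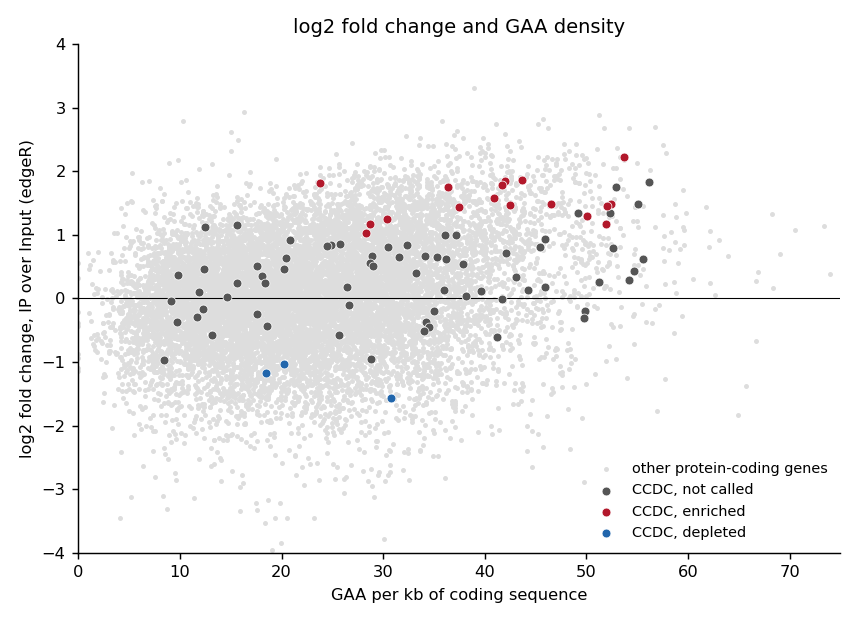
edgeR log2 fold change of IP over Input against GAA per kb of coding sequence, with CCDC mRNAs as large points (red enriched, blue depleted, dark grey not called) and the other protein-coding genes as small grey points, of which 7 lie outside the axes. Enriched CCDC mRNAs begin at 23.8 GAA per kb (CCDC88C), and 11 of the 17 have 40 or more.

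The members with the most and the least GAA varied in their fold changes. CCDC34 had the most (56.1 per kb), and after it CCDC68 (55.6), CCDC59 (55.1), CCDC112 (54.7) and CCDC25 (54.2), and none of these 5 was called without the replicate block. The log2 fold changes of CCDC34 (1.83) and CCDC59 (1.49) were among the highest of the 88 members, and the block called CCDC34 enriched. CCDC68 was at 15.6 and 14.2 CPM in IP, against 10.7 and 8.56 CPM in Input (log2 fold change 0.62 ± 0.25, edgeR adjusted p = 0.109). CCDC112 had 0.43 ± 0.47 and CCDC25 0.30 ± 0.35. The coding sequences of these 5 had from 627 (CCDC25) to 1590 (CCDC112) bases. At the other end, CCDC71L (8.47 per kb) had a log2 fold change of -0.96 ± 0.31 (edgeR adjusted p = 0.0641), and CCDC120 (9.09), CCDC24 (9.74), CCDC142 (9.76) and CCDC97 (11.6) had values between -0.38 and 0.37.

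The CCDC88 proteins, which share a hook-like amino end and bind G proteins or the cytoskeleton, differed in GAA and in recovery. CCDC88A, or girdin, an actin-binding protein, had 50.0 GAA per kb and was at 72.0 and 93.6 CPM in IP, against 35.0 and 32.7 CPM in Input (log2 fold change 1.29 ± 0.24, edgeR adjusted p = 0.0150). CCDC88C had 23.8 per kb and the larger log2 fold change, 1.81. CCDC88B had 14.7 per kb and a log2 fold change of 0.017. CCDC88C encodes most of its glutamate with GAG, by 198 GAG against 37 GAA codons, while CCDC88A has 63 and 177. The order of the 3 in GAA was therefore not their order in fold change.

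Of the 26 tested members with GAAGAAGAA in the coding sequence, 10 (38.5%) were enriched and none was depleted (median log2 fold change 1.05). Of the 62 without it, 7 (11.3%) were enriched and 3 depleted (median 0.36). Among the other protein-coding genes 35.2% of those with the tandem and 8.57% of those without were enriched. CCDC93, CCDC171, CCDC66, CCDC150, CCDC62, CCDC40 and CCDC124 were enriched without it. In CCDC88C and CCDC137 the tandem lies out of the reading frame, and CCDC136, with the run of 5 GAA codons, had a log2 fold change of 0.99 ± 0.27 (edgeR adjusted p = 0.0380).

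Related sequence features were correlated with the fold change to different degrees. Across the 88 members, rho was 0.43 for the share of GAA codons, 0.28 for GAA outside the reading frame, 0.46 for the share of lysine codons and -0.016 for the share of GAG codons. In the other protein-coding genes these were 0.22, 0.22, 0.24 and 0.21. Among the members, rho in replicates 1 and 2 was 0.31 and 0.51 for the share of GAA codons. It was 0.27 and 0.31 for GAA outside the reading frame, and 0.36 and 0.53 for the share of lysine codons. Of these features, only the share of GAG codons changed sign between the replicates of the members, at 0.17 in replicate 1 and -0.17 in replicate 2. TTC, the reverse complement of GAA, had a rho of 0.072 in the members (-0.097 in replicate 1 and 0.16 in replicate 2) and -0.16 in the others. GC content had -0.32 in the members (-0.18 in replicate 1 and -0.42 in replicate 2) and -0.053 in the others. Since it was itself related to GAA density (rho -0.85 among members), the parts of GC and GAA in the members cannot be told apart here. In the other protein-coding genes GC and GAA density had a rho of -0.80, and GAA density had 0.25 with the fold change. The part of each was not tested. The mean Input level in CPM had a rho of -0.0081 with the fold change of the members and 0.15 with that of the other genes.

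Levels differed widely between the members. Per kb of exons, the mean Input level was highest for CCDC47 (52.1 CPM per kb), CCDC85B (47.6) and CCDC124 (36.6), and lowest for CCDC30 (0.0267). Of these, CCDC124 was enriched, at 146 and 102 CPM in IP, against 71.4 and 50.1 CPM in Input (log2 fold change 1.03 ± 0.29, edgeR adjusted p = 0.0458). CCDC85B, a small nuclear protein, was at 24.1 and 37.7 CPM in IP, against 44.5 and 47.2 CPM in Input, with both IP libraries below both Inputs and a log2 fold change of -0.57 ± 0.27 that did not pass the test (edgeR adjusted p = 0.169).

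Of the 45 members with a row that were not tested, 14 were at 0 in all 4 libraries and 31 had at least 1 count. The most was held by CCDC106, with 8 and 17 counts in IP and 7 and 3 in Input, and then by CCDC96 (32 in all) and CCDC102B (31). These are too few to compare IP with Input, and a count of 0 allows a level of up to 0.144 and 0.171 scaled CPM in the IP libraries, against 0.172 and 0.257 in the Inputs, by a limit of 3 counts that covers counting error only. Among the tested members, 26 were below 5 CPM in every library. The counts of CCDC74A and CCDC74B are uncertain because the genes are near-identical copies, and those of CCDC13 because 78.9% of its exonic bases are shared with another gene on the same strand.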

How the data were processed

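Nuclear RNA of 2 ORC1-FLAG IP and 2 Input libraries was analysed. The authors trimmed reads with Trimmomatic, aligned them with STAR, removed reads on GL contigs and counted reads per gene with featureCounts on an Ensembl annotation of hg19. The deposited values are raw counts. The annotation release, the strand setting and the handling of multi-mapped reads are not given in the sources used here, so reads of overlapping genes may not be separated. The kit was stranded.

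Gene models, coordinates and coding sequences were those of GENCODE v44 on GRCh38, joined by Ensembl identifier, with the canonical transcript for each gene. The build differs from that of the counts. Counts were tested with edgeR 4.0.16 (R 4.3.3), using TMM scaling, filterByExpr, the robust quasi-likelihood test, group as the only term and Benjamini-Hochberg adjustment over the 14645 genes tested. The fit was checked on simulated counts, drawn separately for each library. They held no deviation shared by the IP and Input of a replicate, so the check does not cover that feature. Spearman rho was computed with scipy 1.17.1 and has no p, since genes are not replicates. Reads carry no molecular identifiers.

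The labels give the IP and Input of one RIP the same number. Deviations from group means correlated between libraries of a number (Pearson r = 0.65 over 14645 genes), so the replicate block is reported where it changes calls. The study's own DESeq2 was an alternative here, with limma voom, other scalings, other count filters, pseudocounts of 0.1 and 2 CPM and leave-one-out fits. The leave-one-out fits had group as the only term, so each left a library without its partner. The limits to members reaching 5 CPM and to members sharing at most 10% of exonic bases with other genes were chosen after seeing the data. Members, role lists and tests were chosen with earlier results of these data known. Named members were the 10 largest called enrichments, all called depletions, the 5 longest, shortest, most and least GAA-rich, the 3 highest per kb in Input, and the extremes of each role list. Other called or borderline members, CCDC22 and those whose replicates diverged were named after their values were seen.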

Additional observations from a re-analysis of the deposited data

How the results depend on the processing

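With RLE size factors the median log2 fold change of the members was 0.53, with upper-quartile scaling 0.39, without a count filter 0.48 and with the replicate block 0.53. Scaling by library size alone gave -0.042, with 6 enriched and 7 depleted members and 2 above 1 in both replicates. Upper-quartile scaling gave 11 enriched members and 8 above 1 in both replicates, and shifted the median of all genes to -0.16. Without a count filter 9 were above 1 in both replicates, the Spearman correlation with coding length was 0.45 and the Spearman correlation with GAA density 0.21. DESeq2, without a filter too, gave 0.45 and 0.22. Over all exons, the Spearman correlation with length was 0.21. Among members reaching 5 CPM in a library the median was 0.58 and the Spearman correlation with length 0.55, and among members sharing at most 10% of exonic bases the median was 0.62.

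Leaving out each library in turn gave between 12 and 24 enriched and 0 and 4 depleted members, medians from 0.55 to 0.63, the Spearman correlation with length from 0.35 to 0.59 and the Spearman correlation with GAA density from 0.16 to 0.50. The count of depleted members fell to 0 without IP replicate 1 and to 1 without IP replicate 2. With DESeq2 17 were enriched and 2 depleted, and with limma voom 17 and 3.

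Some single named members changed sign. CCDC88B was at -0.0068 with RLE and -0.016 with at least 1 CPM in 2 libraries. Upper-quartile scaling gave CCDC88B -0.16, CCDC167 -0.035, CCDC180 -0.044 and CCDC63 -0.060. Library size alone gave CCDC112 -0.13, CCDC142 -0.21, CCDC167 -0.47, CCDC180 -0.45, CCDC25 -0.31, CCDC51 -0.15, CCDC63 -0.48 and CCDC88B -0.59. In the leave-one-out fits that changed a sign, the ranges were -0.28 to 1.48 for CCDC112, -0.38 to 0.31 for CCDC120, -0.80 to 0.55 for CCDC138, -0.10 to 0.26 for CCDC167, -0.96 to 1.73 for CCDC180, -1.37 to 0.69 for CCDC200, -0.22 to 0.83 for CCDC25, -0.43 to 0.79 for CCDC63, -1.27 to 0.56 for CCDC65 and -0.064 to 0.091 for CCDC88B. The cause was not tested. The replicate block changed no call of a member beyond the 6 it added. Of 491 values of named members under the alternatives, 413 kept direction and side of the threshold. Depth limits the members below 5 CPM, where a few counts move the ratio.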

Other observations

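Many genes once named CCDC now carry a name that states a function, and are not among the members. Of 49 such genes whose former CCDC symbol is a RefSeq synonym, 42 were tested, and 15 of them were enriched and 5 depleted, against 10.5% and 8.30% of all genes tested. Their median log2 fold change was 0.99. The highest was that of CEP112, a centrosomal protein, at 36.9 and 39.1 CPM in IP, against 9.91 and 4.62 CPM in Input (2.37 ± 0.37, edgeR adjusted p = 0.0117), with both IP libraries above both Inputs. The lowest was that of COA3, an assembly factor of cytochrome oxidase, at 3.60 and 3.07 CPM in IP, against 18.0 and 12.1 CPM in Input (-2.17 ± 0.31, edgeR adjusted p = 0.0107). Of the other 4 depleted genes, MCU and MCUR1 belong to the mitochondrial calcium uniporter, and the remaining genes were MIX23 and ABRAXAS1. The list was compiled with earlier results of these data known.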
